A study of Bos grunniens and Bos grunniens x Bos taurus with 6 samples.

Results

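Spermatogonia, the mitotic germ cells at the base of the seminiferous tubule, were examined in testis of a mature yak (Bos grunniens, 4 years old) and of a cattle-yak, the hybrid of yak and domestic cattle, also sampled after sexual maturity and with no age in its label. Each gave 1 single-cell library of 10x Genomics, in which every RNA molecule is counted by its unique molecular identifier (UMI). The cells were chosen by their RNA: at least 300 genes, at most 20% mitochondrial UMIs, at least 2 of the 8 genes UCHL1, DMRT1, ZBTB16, TKTL1, NANOS3, FGFR3, RET and PIWIL4 detected, no UMI of DMC1 or SPO11 (meiotic recombination), at most 1 UMI in sum of ACRV1, SPACA1 and SPACA4 (acrosome of spermatids), and at most 1 of DCN, COL1A2, PECAM1, CDH5 and CD3D (stroma, endothelium, T cells). This selection found 317 cells among 8615 kept cells of both libraries, and among 31071 kept cells of the series. The yak gave 252 of 4800 kept cells (5.25%, 95% exact binomial interval 4.64 to 5.92) and the cattle-yak 65 of 3815 (1.70%, 1.32 to 2.17). Libraries from yak of 18 months (adolescent, replicates 3 and 4, with 433 and 506 cells by the same rule) served as the measure of spread between libraries of 1 stage and as the earlier stage. Yak of 6 months (prepubertal, replicates 1 and 2) held 81 and 57 such cells. The labels name testis as the tissue and describe frozen tissue that was thawed, digested with enzymes and cultured before loading. No genetic modification or treatment is given for any group.

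Spermatogonia comprise self-renewing stem cells, progenitors and differentiating cells that later enter meiosis. ZBTB16 (PLZF), a transcription repressor, and the GDNF receptor components RET and GFRA1 are used as marks of the undifferentiated state, NANOS3 is an RNA-binding protein of early germ cells, and PIWIL4 is the PIWI protein that directs silencing of transposons in the nucleus. UCHL1 (PGP9.5), a ubiquitin hydrolase, marks spermatogonia of cattle and other livestock, DMRT1 is a transcription factor that keeps spermatogonia from entering meiosis early, and the receptor tyrosine kinase KIT marks differentiation. Retinoic acid starts that differentiation and, later, meiosis. Male cattle-yak are known to be sterile, with spermatogenesis that stalls around meiosis.

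All UMIs of a library's selected cells were added up and expressed as counts per 1000000 UMIs (CPM). The sum held 1399928 UMIs in the yak and 230874 in the cattle-yak. Median depth per selected cell was 2777 UMIs and 1232 genes in the yak against 1520 UMIs and 819 genes in the cattle-yak, and the median mitochondrial share was 7.31% and 9.99%. With every cell thinned to 1000 UMIs, which left 210 of 252 yak and 44 of 65 cattle-yak cells, the median was 628 genes in the yak (quartiles 581 and 654) and 576 in the cattle-yak (508 and 618). The 6 libraries shared between 5 and 16 barcodes pair by pair. With 1 library per mature genotype, the cattle-yak can be compared with the mature yak only by size. Genotype, animal and library cannot be told apart, and intervals of ratios cover counting error only. In the same way, fewer RNA molecules per cell and fewer expressing cells cannot be told apart in summed counts.

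The genes that chose the cells are given as a description. UCHL1 had a UMI in 98.4% of yak members and in 89.2% of cattle-yak members, at summed levels of 2330 and 2209 CPM. TKTL1, a transketolase-like gene, was detected in 86.5% and 70.8%, at 921 and 819 CPM. DMRT1 was detected in 48.8% and 35.4%, at 281 and 308 CPM. Levels of these leading genes were thus near each other in both libraries. The genes of the undifferentiated state were found in fewer cells. ZBTB16 was detected in 19.4% of yak members (70 UMIs) and 24.6% of cattle-yak members (20 UMIs), and NANOS3 in 15.5% (59 UMIs) and 23.1% (21 UMIs). FGFR3 was detected in 7.54% and 9.23%, and RET in 1.98% and 3.08%. PIWIL4 had 56 UMIs in 27 yak members (10.7%) and 0 UMIs in the 65 cattle-yak members, at a lower depth per cell. This 0 allows a share of cells with a UMI of up to 4.62% (3 counts of 65). With each cell thinned to 1000 UMIs, 2.38% of yak members held PIWIL4, and 0 of 44 cattle-yak members allows up to 6.82%. Per cell, no difference in PIWIL4 was thus detectable at this depth. At the yak level, 9.24 PIWIL4 UMIs would have been counted in the cattle-yak sum. In the adolescent libraries PIWIL4 had a UMI in 25.4% and 7.71% of members.

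**Figure D1:**
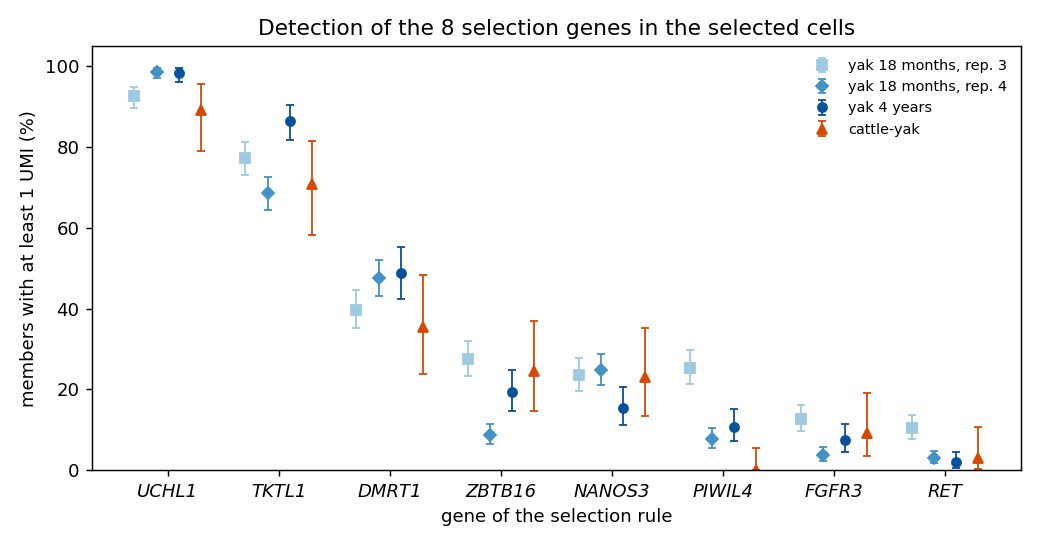
Share of selected cells with at least 1 UMI of each of the 8 selection genes (vertical axis, %) in the libraries of 18 months, of 4 years and of the cattle-yak; bars are 95% exact binomial intervals, which cover counting error only. UCHL1 lies above 89% in all 4 libraries, and PIWIL4 is at 0 in the cattle-yak.

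The label was checked against markers outside the rule. GFRA1 had 3 UMIs in the yak and 0 in the cattle-yak, so it can be used in neither. KIT had 38 UMIs in 29 yak members and 5 UMIs in 4 cattle-yak members. DMRTB1, a transcription factor that acts between mitosis and meiosis, was present in 32.5% of yak and 15.4% of cattle-yak members, against 2.22% and 0.103% of a background class in the same libraries (cells with at least 2 UMIs of lymphocyte or endothelial markers and none of the 8 genes, 722 and 969 cells with median depths of 1771 and 1670 UMIs). With each cell thinned to 1000 UMIs, DMRTB1 was found in 8.57% of yak and 11.4% of cattle-yak members. The order of the unthinned shares thus did not hold at equal depth. SALL4, DAZL, DDX4 and STRA8 were not matched by symbol and were not analysed here. Genes high in the selected cells over all other kept cells of their own library included several with roles in germ cells and DNA replication. RADX, a regulator of replication forks, was at 154 CPM against 8.32 in the yak and at 459 against 7.50 in the cattle-yak. ELAVL2, a neuronal-type RNA-binding protein also present in germ cells, was at 161 against 10.7 and at 113 against 5.98. HELLS, a chromatin remodeller needed for DNA methylation, was at 208 against 20.2 and at 204 against 13.6. CRABP1, a cellular carrier of retinoic acid, was at 406 against 28.3 and at 351 against 47.8. Cells with a UMI of DMC1 or SPO11 also held HELLS, at 157 CPM in the yak and 258 in the cattle-yak, and ELAVL2, at 64.7 and 174. CRABP1 was at 254 and 167 CPM there, RADX at 75.1 and 139, and DMRTB1 at 111 and 76.7. In the cattle-yak, HELLS and ELAVL2 thus did not set members apart from that class. The choice of these 4 genes followed from their values, and the selection by UCHL1 and its companions fixes part of such an excess, so no test belongs to the excess over all other cells.

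Of the yak members, 111 had exactly 2 of the 8 genes and 141 had more. Of the cattle-yak members, 41 had exactly 2 and 24 had more. Cells just outside the rule, with 1 of the 8 genes, held 207 CPM of UCHL1 in the yak and 363 in the cattle-yak. Cells just inside, with 2, held 1774 and 770, and cells with 3 or more held 2477 and 3259. DMRT1 followed the same order, at 11.5, 64.9 and 338 CPM in the yak and at 12.7, 51.3 and 494 in the cattle-yak. INHA, the inhibin subunit made by Sertoli cells, ran the other way in the cattle-yak, at 161, 144 and 30.0 CPM, and was at 14.1 or below in the yak. The order of UCHL1 and DMRT1 follows in part from the rule, which counts these genes, whereas INHA is outside it. Values over cells with at least 3 of the 8 genes, 141 in the yak and 24 in the cattle-yak, are given where they differ from those over all members.

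Early and late spermatogonial genes were then read in the same cell. In the yak, 50 members had a UMI of an early gene only (ZBTB16, PIWIL4, FGFR3, RET or NANOS3), 67 of a late gene only (KIT, DMRTB1, REC8 or MEIOC), 42 of both, and 93 of neither. In the cattle-yak these numbers were 23, 9, 6 and 27. In the libraries of 18 months they were 173, 18, 80 and 162, and 135, 39, 52 and 280. The yak of 4 years was the only one of these 4 libraries in which cells with late genes alone outnumbered those with early genes alone. The early genes were also selection genes, and the shares depend on depth, so these counts are a description.

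**Figure D2:**
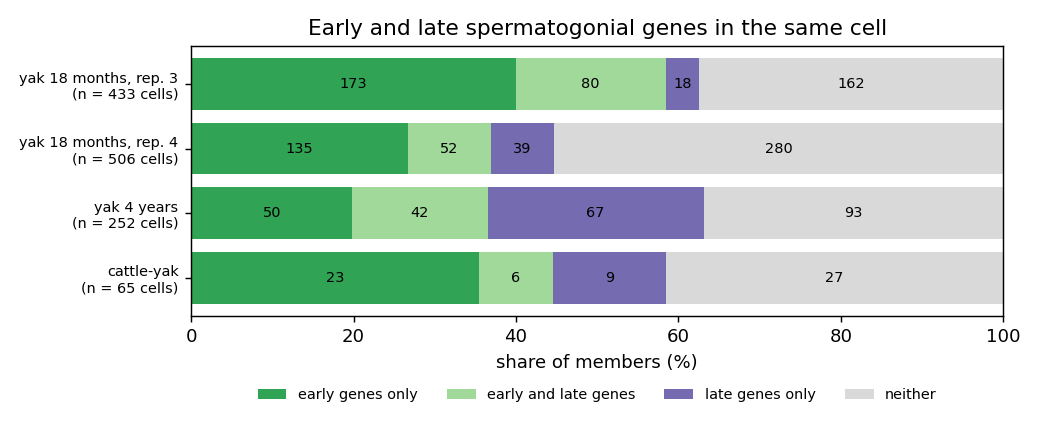
Selected cells of each library by the genes detected in the same cell, as a share of members (horizontal axis, %) with cell numbers printed in the bars; early genes are ZBTB16, PIWIL4, FGFR3, RET and NANOS3, late genes KIT, DMRTB1, REC8 and MEIOC. Late genes alone were found in 67 of 252 cells of the mature yak and in 9 of 65 cells of the cattle-yak.

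Many members also held RNA of meiotic prophase, although DMC1 and SPO11 were excluded. UMIs of the prophase list exceeded those of the spermatogonial genes in 79 yak members (31.3%) and 16 cattle-yak members (24.6%), and no prophase UMI was found in 20 and 15. SMC1B, the meiotic cohesin subunit, was at 574 CPM in the yak and 463 in the cattle-yak. SYCP1, the transverse filament of the synaptonemal complex, was at 268 and 290 CPM. ZCWPW1, a reader of histone marks at recombination sites, was at 502 and 507. SYCP1 and ZCWPW1 differed by less than counting error, and SMC1B was slightly lower in the cattle-yak (ratio interval 0.653 to 0.988). The selected cells thus hold RNA of early spermatogonia and of cells close to meiosis. Cells of the next stages were fewer in the cattle-yak library: cells with DMC1 or SPO11 numbered 177 in the yak and 18 in the cattle-yak, and cells of the spermatid class, with at least 2 UMIs of the 3 acrosome genes, 674 and 5.

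Between cattle-yak and mature yak, few of the genes tested were counted as 4-fold or more apart. Of 6299 genes with at least 20 UMIs in 1 of the sums, 74 (1.17%) were 4-fold or more higher in the cattle-yak and 120 (1.91%) were 4-fold or more lower. A library with fewer than 3 UMIs of a gene was counted as 3. The cattle-yak sum is smaller, so genes with few yak UMIs could not count as lower even at 0, such as LHX1 (50 and 0 UMIs). With at least 50 UMIs required in the higher library, 35 genes (0.888%) were higher and the same 120 (3.05%) lower, of 3940 tested. The median log2 ratio, cattle-yak over yak, was −0.24. The yardstick was the pair of 18-month libraries, thinned to the same totals: 216 of 6749 genes (3.2%) were 4-fold apart with replicate 4 in the place of the cattle-yak, and 130 of 5565 (2.34%) with replicate 3 there. The share of genes 4-fold apart between the genotypes, in both directions together (194 genes), lay between these values. The members of the 18-month pair also differed in Sertoli genes, whose list was at 1580 CPM in replicate 3 and 9139 in replicate 4. It was at 396 CPM in the mature yak and 1252 in the cattle-yak. The part of Sertoli cell RNA in the yardstick was not tested. By direction, the library in the place of the cattle-yak was higher for 0.622% and 1.15% of genes and lower for 2.58% and 1.19%. Among cells with at least 3 of the 8 genes, 14 genes were higher and 67 lower of 5619, and 13 and 34 of these were the same genes as in the main count.

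**Figure D3:**
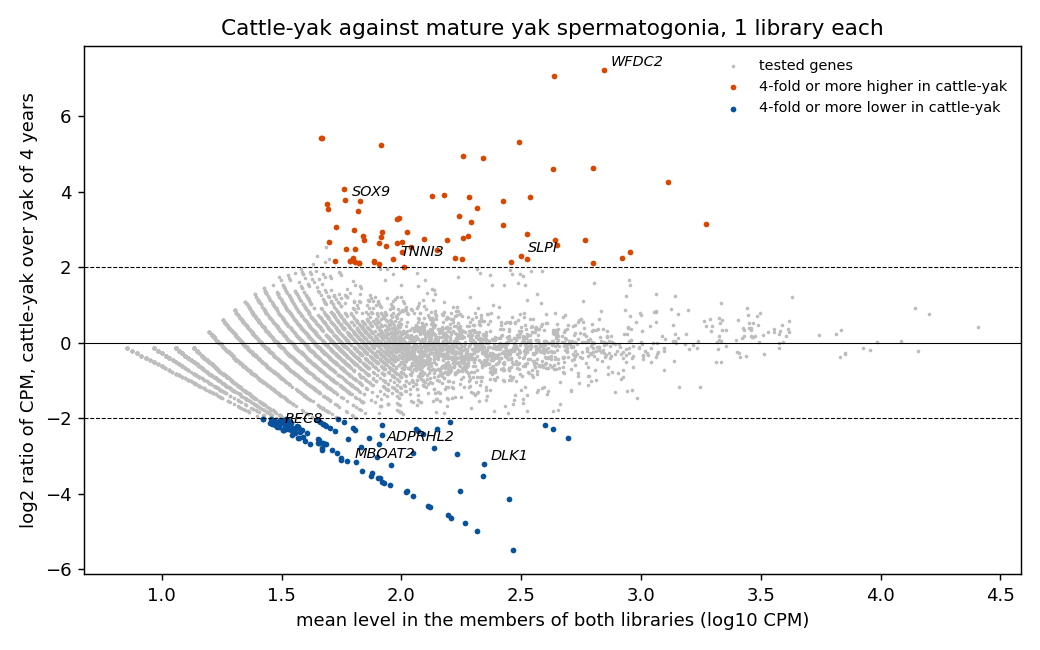
Log2 ratio of CPM, cattle-yak over yak of 4 years (vertical axis), against the mean level in both sums (horizontal axis, log10 CPM) for the 6299 genes with at least 20 UMIs in 1 sum; coloured points are 4-fold or more apart (74 higher, 120 lower in the cattle-yak), dashed lines mark 4-fold. Most points lie between the dashed lines, and WFDC2 is the highest named gene.

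Part of both counts were genes with a higher level in other cells than in the spermatogonia. Whether their RNA in the members came from those cells was not tested. Of the 120 lower genes, 61 were over 5 times higher in the spermatid class of the yak library than in its spermatogonia. Only 27 of the 120 and 17 of the 74 had a level in the spermatogonia at least as high as in all other cells of the library in which they were higher. Of all 120 lower genes, 51 were lower in the cattle-yak than in the yak of 4 years and in both yak libraries of 18 months, and 10 were 4-fold or more lower than in all 3. Of the 74 higher genes, 54 were higher than in all 3 yak libraries, and 20 were so by 4-fold. Since the genes were chosen on the cattle-yak value, these counts are a description. The named genes come from the 27 and 17 with a level at least that of other cells.

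DLK1 had the most UMIs of the named lower genes. It is an imprinted gene for a membrane protein of the Notch ligand family. DLK1 was at 398 CPM in the mature yak, 436 and 260 CPM in the adolescent libraries and 43.3 CPM in the cattle-yak. The cattle-yak value lies below all 3 yak values, which do not overlap it. DLK1 was 9.19-fold lower in the cattle-yak than in the mature yak (interval 4.96 to 19.3), with 10 UMIs against 557, and 7.89-fold lower among cells with at least 3 of the 8 genes. A UMI of DLK1 was found in 42.9% of yak and 12.3% of cattle-yak members, against about 0.4% of the background class in each library (0.416% and 0.413%). With each cell thinned to 1000 UMIs the shares were 20.0% (14.8 to 26.1) and 9.09% (2.53 to 21.7), which overlap. MBOAT2, a lysophospholipid acyltransferase, was at 114 CPM in the mature yak and at 197 and 87.9 in the adolescent libraries. The cattle-yak held 1 UMI of MBOAT2 (4.33 CPM), which is 26.4-fold lower than in the mature yak by the counts themselves, with a counting interval of 4.67 to 1049, and 8.80-fold lower with 3 UMIs in its place, as in the count of genes. ADPRHL2, which removes ADP-ribose from serine after DNA damage, was at 140 CPM in the mature yak, 77.3 and 104 in the adolescent libraries and 21.7 in the cattle-yak. Its difference was 6.46-fold (2.72 to 20.1). Of the 12 named lower genes, only DLK1, MBOAT2 and ADPRHL2 were counted as past 4-fold in cells with at least 3 of the 8 genes. There 3 UMIs stand for a higher level since the cattle-yak sum is smaller.

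MORC1, an ATPase that represses transposons in male germ cells, was at 56.4 CPM (79 UMIs) in the mature yak and at 126 and 37.9 CPM in the adolescent libraries. No UMI of MORC1 was counted in the cattle-yak, where 13.0 would have been counted at the yak level. It was thus at least 4.34-fold lower in the cattle-yak than in the mature yak, with 3 UMIs per library as the limit, and this bound was 2.57-fold among cells with at least 3 of the 8 genes. A UMI of MORC1 was found in 9.52% of yak members and in 0 of 65 cattle-yak members, at a lower depth per cell. REC8, the meiotic cohesin subunit that appears before meiosis, was at 60.7 CPM (85 UMIs) in the mature yak and had 0 UMIs in the cattle-yak, at least 4.67-fold lower by the same limit of 3 UMIs, or at least 3.05-fold among cells with at least 3 of the 8 genes. The counting interval used for other genes gave lower bounds of 3.72-fold for REC8 and 3.45-fold for MORC1 over all members. With up to 10% mitochondrial UMIs the bounds on the log2 ratio were −1.18 for REC8 and −1.41 for MORC1. By the limit of 3 UMIs, the smaller sums of these settings could not show 4-fold even at 0 cattle-yak UMIs. Whether either gene was past 4-fold there is thus undetermined. The adolescent libraries held 7.06 and 8.07 CPM of REC8, so among these 4 libraries REC8 was high in the mature yak alone. After thinning, 6.19% of yak members held REC8 and 4.29% held MORC1, while 0 of 44 cattle-yak members allows up to 6.82%, so per cell neither difference was detectable at this depth. CTCFL (BORIS), the testis relative of the insulator protein CTCF, was at 62.9 CPM in the mature yak, 13.3 and 3.23 in the adolescent libraries and 8.66 in the cattle-yak (2 UMIs, interval of the ratio 1.95 to 60.9). CTCFL had 0 UMIs in cattle-yak cells with at least 3 of the 8 genes and was at least 3.09-fold lower there. Like REC8, CTCFL stood high in the mature yak alone among the selected cells of these 4 libraries. Over all other kept cells, the cattle-yak library held 4.32 CPM of REC8, 0.509 of MORC1 and 6.23 of CTCFL. Its cells with DMC1 or SPO11 held CTCFL at 146 CPM (21 UMIs), against 97.0 in such cells of the yak. In the same cells REC8 was at 20.9 CPM (3 UMIs) against 52.1, and MORC1 at 0 against 36.5.

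The remaining lower genes were at or below 150 UMIs in the yak. BAG2, a co-chaperone, was at 56.4 CPM in the mature yak, 118 and 99.2 in the adolescent libraries and 4.33 in the cattle-yak. LFNG, the glycosyltransferase Lunatic fringe that modifies Notch receptors, was at 106, 177, 71.4 and 21.7 CPM in the same order. CALY, a vesicle protein, was at 80.0, 103, 104 and 17.3 CPM. RSPH14, of the axoneme, was at 58.6, 51.0, 58.1 and 8.66, JPH3, a junctophilin, at 55.7, 47.5, 32.7 and 8.66, and INTS3, an Integrator subunit, at 54.3, 78.9, 34.3 and 8.66 CPM. In all 6 genes the cattle-yak value was the lowest of the 4 libraries. They rest on 1 to 5 UMIs in the cattle-yak. Among cells with at least 3 of the 8 genes, LFNG was 3.83-fold and CALY 3.01-fold lower, from 4 cattle-yak UMIs each. BAG2, RSPH14, JPH3 and INTS3 had 1 or 2 UMIs there, which were counted as 3. So counted, they were 2.61-fold (BAG2, INTS3) to 2.81-fold (RSPH14) lower and could not have passed 4-fold even at 0 UMIs. Over all members the lower bounds of the fold differences of all 6 genes from the mature yak lay between 1.68 (INTS3) and 2.27 (BAG2). LFNG was also present in the background class, in 19.8% of its cells in the yak and 27.3% in the cattle-yak, against 26.2% and 4.62% of spermatogonia.

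**Figure D4:**
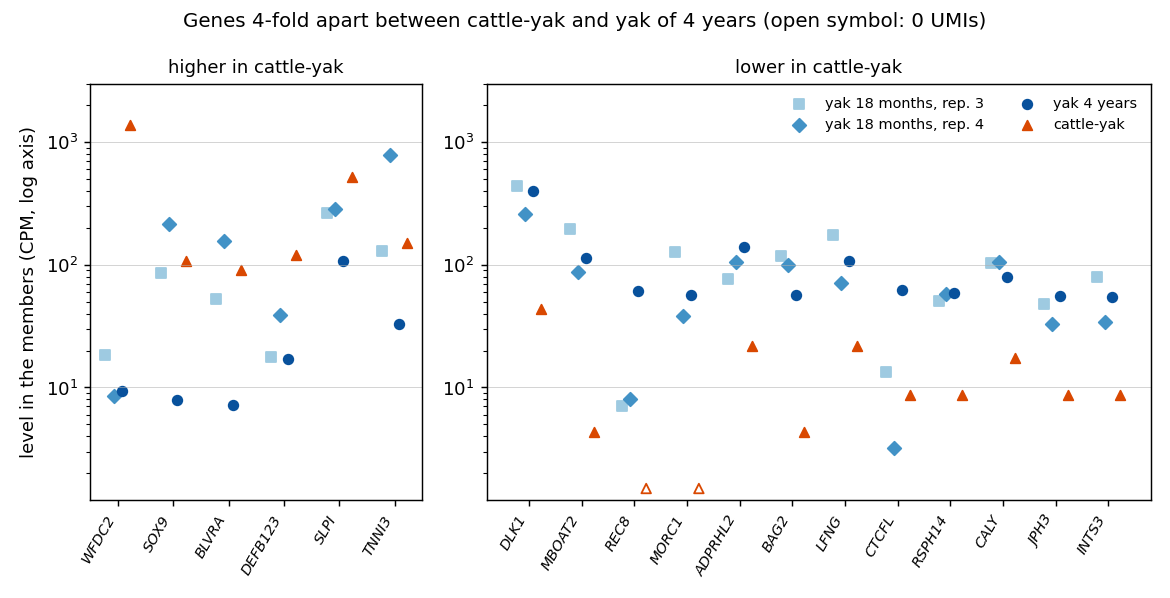
Level of each named gene in the selected cells (vertical axis, CPM on a log axis) in 4 libraries; filled symbols are measured levels, and open symbols, drawn at the foot of the axis, mark 0 UMIs. DLK1 lies at 260 CPM or above in the 3 yak libraries and at 43.3 in the cattle-yak, while REC8 is high in the yak of 4 years alone.

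On the high side, single cells carried much of the difference. WFDC2, a secreted protease inhibitor of the reproductive tract, was at 1386 CPM in the cattle-yak and 9.29 in the mature yak, but 303 of its 320 UMIs came from 1 cell. The same cell held 22 of the 25 UMIs of SOX9, the Sertoli and duct transcription factor, and no UMI of UCHL1 or DMRT1. A second cell held 172 of 234 UMIs of TAGLN and 42 of 43 of ACTA2, both of smooth muscle, with 1 UMI of UCHL1. Each of these cells had exactly 2 of the 8 genes. Without them 50 genes were higher and 117 lower in the cattle-yak, all 50 among the 74, and for 27 of the 74 the cell with the highest count was 1 of these. Of the 74, 9 had over 50% of their UMIs in a single cell. Without the WFDC2 and TAGLN cells, WFDC2 was at 78.6 CPM from 17 UMIs (log2 ratio 3.08, against 7.22 with them). Its ratio was 4.15 among cells with at least 3 of the 8 genes, from 5 cattle-yak UMIs. All other kept cells held WFDC2 at 562 CPM in the cattle-yak and 8.86 in the yak. SOX9 was at 13.9 CPM with 3 UMIs without the WFDC2 and TAGLN cells (log2 ratio 0.82, against 3.78 with them).

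SLPI, the secretory leukocyte protease inhibitor, was spread over more cells. It was at 524 CPM in the cattle-yak (121 UMIs, 35.4% of members), 106 CPM in the mature yak (33.3% of members), and 264 and 283 CPM in the adolescent libraries. The ratio to the mature yak was 4.92 (3.84 to 6.30), and 54 of the 121 UMIs came from 1 cell. Among cells with at least 3 of the 8 genes the ratio was 6.36, and SLPI was the 1 gene of the 6 named higher genes still counted as past 4-fold there. The background class held SLPI in 0.826% and 0.277% of its cells. The remaining 3 genes were also present outside the germline. BLVRA, biliverdin reductase, was at 91.0 against 7.14 CPM, DEFB123, a defensin, at 121 against 17.1, and TNNI3, cardiac troponin I, at 152 against 32.9. Among cells with at least 3 of the 8 genes DEFB123 was at 22.5 against 19.0 CPM, a ratio of 1.19. TNNI3 had a ratio of 3.06 there and BLVRA one of 9.33 (67.4 against 7.22 CPM). With 9 cattle-yak UMIs there, BLVRA fell short of the 20 UMIs needed to be counted. Over all members the ratio of DEFB123 was 7.07. In the adolescent libraries BLVRA was at 52.6 and 157 CPM and TNNI3 at 130 and 779, so for both the cattle-yak lies between yak libraries. ASB9, a substrate adaptor of ubiquitin ligases listed with differentiation, did not reach 4-fold. It was at 784 CPM in the cattle-yak (36 of 65 cells) and 364 in the mature yak (123 of 252), a ratio of 2.16 (1.81 to 2.56), with 433 and 561 in the adolescent libraries. After thinning ASB9 was found in 47.7% (32.5 to 63.3) and 27.6% (21.7 to 34.2) of members. RADX was at 459 against 154 CPM, a ratio of 2.99 (2.35 to 3.79), in 15 of 44 against 23 of 210 thinned members. RADX and ASB9 were singled out with their values in view.

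Gene lists were described by their members and their summed level, beside the 1.17% and 1.91% of all tested genes that were 4-fold higher or lower. Counting fewer than 3 UMIs as 3 limits the number of lower genes in the lists as well. Of the stem and progenitor list, 11 of 30 genes present had enough UMIs. None was 4-fold higher and 1, MORC1, was lower. The summed level was 743 CPM in the mature yak and 931 in the cattle-yak, a ratio of 1.25 (1.08 to 1.45), and 0.93 among cells with at least 3 of the 8 genes. ID1, an inhibitor of differentiation, which is also high in other cells, was at 85.0 and 329 CPM (46.1 and 74.9 among cells with at least 3 of the 8 genes) and was the gene of this list farthest above the yak. LHX1, a transcription factor of stem cells in the mouse, had 50 UMIs in the yak and 0 in the cattle-yak, where 8.25 would have been counted at the yak level. LHX1 was at 35.7 CPM in yak members but at 88.4 in all other yak cells, and at 0.127 in all other cattle-yak cells. It was at 14.4 CPM in yak cells with at least 3 of the 8 genes, and at 12.2 and 5.65 in the adolescent libraries. ELAVL2, FOXO1 and LIN28B, all tied to undifferentiated germ cells, were at 161, 57.9 and 45.0 CPM in the yak and 113, 47.6 and 69.3 in the cattle-yak, each within counting error. ID4, a marker of stem cells in the mouse, was at 23.6 CPM in the yak and 52.0 in the cattle-yak, from 33 and 12 UMIs.

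For differentiation, 17 of 18 genes had enough UMIs, with none higher and 2 lower, REC8 and CTCFL. The summed level was 1529 CPM in the yak and 1724 in the cattle-yak, a ratio of 1.13 (1.01 to 1.26). TEX15, needed for silencing of transposons and for recombination, was at 154 CPM in the mature yak, 352 and 121 in the adolescent libraries and 43.3 in the cattle-yak, 3.56-fold lower (1.90 to 7.53). HELLS, MEIOC and SCML2 differed by less than counting error, at 208, 59.3 and 50.7 CPM in the yak and 204, 56.3 and 65.0 in the cattle-yak. DMRTB1 was at 131 and 165 CPM.

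Genes of DNA replication and mitosis were at like levels in both sums. Their summed level was 3054 CPM in the mature yak and 3015 in the cattle-yak, a ratio of 0.99 (0.91 to 1.07; 1.22 among cells with at least 3 of the 8 genes), and 0 of 24 genes were 4-fold apart. It was 2340 and 1463 CPM in the adolescent libraries. CENPF, a kinetochore protein of dividing cells, was at 608 CPM in the yak and 1109 in the cattle-yak, and 1 cell held 74 of its 256 cattle-yak UMIs. MCM2 and MCM5, of the replicative helicase, were at 181 and 143 CPM in the yak and 108 and 65.0 in the cattle-yak, and TOP2A, which untangles DNA, at 364 and 308. BIRC5, of the chromosomal passenger complex, was at 207 and 82.3 CPM, a lower cattle-yak value beyond counting error. Members of this list thus lay on both sides. DNA damage and repair genes (0 of 16 apart) summed to 1864 and 1559 CPM, a ratio of 0.84 that was 1.04 among cells with at least 3 of the 8 genes, led by PARP1, which senses DNA breaks, at 614 and 520. Apoptosis genes (0 of 3 apart) summed to 1254 and 2183 CPM, most of it from BAX, which opens mitochondria in dying cells, at 1109 and 2040. Their ratio of 1.74 was 1.36 among cells with at least 3 of the 8 genes. All other kept cells were at 1118 CPM in the yak and 2216 in the cattle-yak. The adolescent libraries were at 1223 and 3013 CPM, so the cattle-yak lay between yak libraries.

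The piRNA and transposon silencing genes were lower in sum. Their summed level without PIWIL4 was 1777 CPM in the mature yak and 1040 in the cattle-yak, a ratio of 0.59 (0.51 to 0.67), and 0.74 among cells with at least 3 of the 8 genes. With PIWIL4 the list was at 1817 and 1040 CPM in members, and at 1556 and 106 CPM in all other kept cells. The other cells of the 2 libraries thus lay farther apart than the members. The part of free RNA from other germ cells in the members' difference was not tested. Of 16 genes with enough UMIs, 14 had a ratio below 1, and 1, MORC1, was 4-fold lower. Among all tested genes the median log2 ratio was −0.24, against −0.85 for this list. MAEL, of the piRNA body, was at 361 CPM in the yak and 243 in the cattle-yak. RNF17, a tudor domain protein, was at 239 and 86.6. SPOCD1, which directs DNA methylation to transposons, had 140 and 6 UMIs and was 3.85-fold lower (1.72 to 10.7), and TDRD9, a helicase of the pathway, had 145 and 8 UMIs and was 2.99-fold lower (1.48 to 7.06). HENMT1, which methylates piRNA ends, was at 140 and 156 and TDRD1 at 72.1 and 91.0, so not every gene followed. The 18-month libraries summed to 1922 and 1031 CPM, and the distance between these was as wide as that between the genotypes.

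Meiotic prophase genes (20 with enough UMIs, 0 apart) summed to 3682 and 3019 CPM, a ratio of 0.82 (0.76 to 0.89). TEX12, of the synaptonemal complex, was at 521 and 221 CPM and REC114, needed for recombination breaks, at 329 and 139, both lower in the cattle-yak beyond counting error. SPATA22, a recombination factor, was at 158 and 251 CPM, higher. Retinoic acid genes (0 of 6 apart) summed to 621 and 563 CPM, with the receptor RARA at 53 and 12 UMIs, RARB at 84 and 8 UMIs, and the synthetic enzyme ALDH1A2 at 72 and 12 UMIs, each within counting error. Chromatin and DNA methylation genes (0 of 20 apart) summed to 3160 and 2833 CPM, a ratio of 0.90 (1.04 among cells with at least 3 of the 8 genes). EZH2, the Polycomb methyltransferase, was at 310 and 290 and DNMT1, the maintenance methyltransferase, at 178 and 165. Nuclear genes of oxidative phosphorylation (0 of 13 apart) summed to 4487 and 3955 CPM and glycolysis (0 of 6 apart) to 287 and 364.

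Genes of the immediate response stood apart in direction. Of 14 heat shock and immediate-early genes with enough UMIs, 6 were 4-fold higher in the cattle-yak and 0 lower. Without the WFDC2 and TAGLN cells 2 of 13 were higher, and among cells with at least 3 of the 8 genes 1 of 9. FOS was at 44.3 CPM in the mature yak, 645 in the cattle-yak and 481 and 1094 in the adolescent libraries, and JUN at 287, 1520, 1636 and 2044. For both genes the mature yak was the lowest library. The WFDC2 and TAGLN cells held 83 of the 149 FOS UMIs and 168 of the 351 JUN UMIs of the cattle-yak, and without them FOS was at 305 CPM and JUN at 846. Among cells with at least 3 of the 8 genes FOS was at 25.3 CPM in the yak and 150 in the cattle-yak, and JUN at 284 and 247. The heat shock proteins HSP90AA1 and HSP90AB1 were at 3594 and 3077 CPM in the mature yak and 2932 and 2404 in the cattle-yak. FOS was found in 27.7% of cattle-yak members but in 55.3% of the background class, and in 6.75% and 39.2% in the yak, so these shares are below those of the background class. The part of free RNA in them was not tested. Among cells with at least 3 of the 8 genes the list's ratio was 0.83, against 1.13 over all members and 0.97 without the WFDC2 and TAGLN cells. GDNF, FGF and kinase genes, which hold FOS too, summed to 455 and 1053 CPM (1 of 9 higher, 0 lower), a ratio of 2.31 that was 1.39 without these cells and 1.22 among cells with at least 3 of the 8 genes.

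RNA of other cell types moved with the comparison. The mural list (smooth muscle and pericytes, 8 of 8 genes present) summed to 213 CPM in the mature yak and 1343 in the cattle-yak, of which 237 of 310 UMIs lay in 1 cell, and the ratio was 0.76 among cells with at least 3 of the 8 genes. NOTCH3 and MYL9 were at 0 in the cattle-yak. The stroma list without DCN and COL1A2 (6 genes) summed to 5.71 and 113 CPM, and LUM and TCF21 were at 0 in the cattle-yak. The Sertoli list (8 genes) summed to 396 and 1252 CPM, led by CST3, which many cells make, with FSHR and DHH at 0 in the cattle-yak. Among cells with at least 3 of the 8 genes it summed to 401 and 479 CPM, against a ratio of 3.16 over all members. The lymphocyte list (8 genes without CD3D) summed to 92.9 and 264 CPM, with TRDC, CD52 and GZMA at 0 in the cattle-yak, and the ratio of 2.85 was 6.81 among cells with at least 3 of the 8 genes. The endothelial list (6 genes) summed to 87.9 and 139 CPM (ratio 1.58, and 0.58 among cells with at least 3 of the 8 genes) and the macrophage list (7 genes) to 32.1 and 13.0. On the other side, the late spermatocyte list (13 genes) summed to 1109 CPM in the yak, where 1 cell held 476 of 1552 UMIs, and to 329 in the cattle-yak, with ADAM2, NME8, PGK2 and KLHL10 at 0 there. The spermatid list (16 genes) summed to 382 and 56.3 CPM, with HMGB4, GAPDHS and TNP1 at 0 in the cattle-yak. CLGN, a chaperone of sperm proteins that is at 2152 CPM in the rest of the yak testis and 17.8 in the rest of the cattle-yak testis, was at 649 and 143 CPM in the selected cells. Among interferon and antigen presentation genes, CD74 was at 146 and 550 CPM against 1095 and 1691 in all other cells. The WFDC2 and TAGLN cells held 66 of its 127 cattle-yak UMIs, and without them it was at 282 CPM. The list's ratio of 3.12 was 1.97 without these cells and 1.22 among cells with at least 3 of the 8 genes. The part of these cells and of free RNA in the differences above was not tested.

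**Figure D5:**
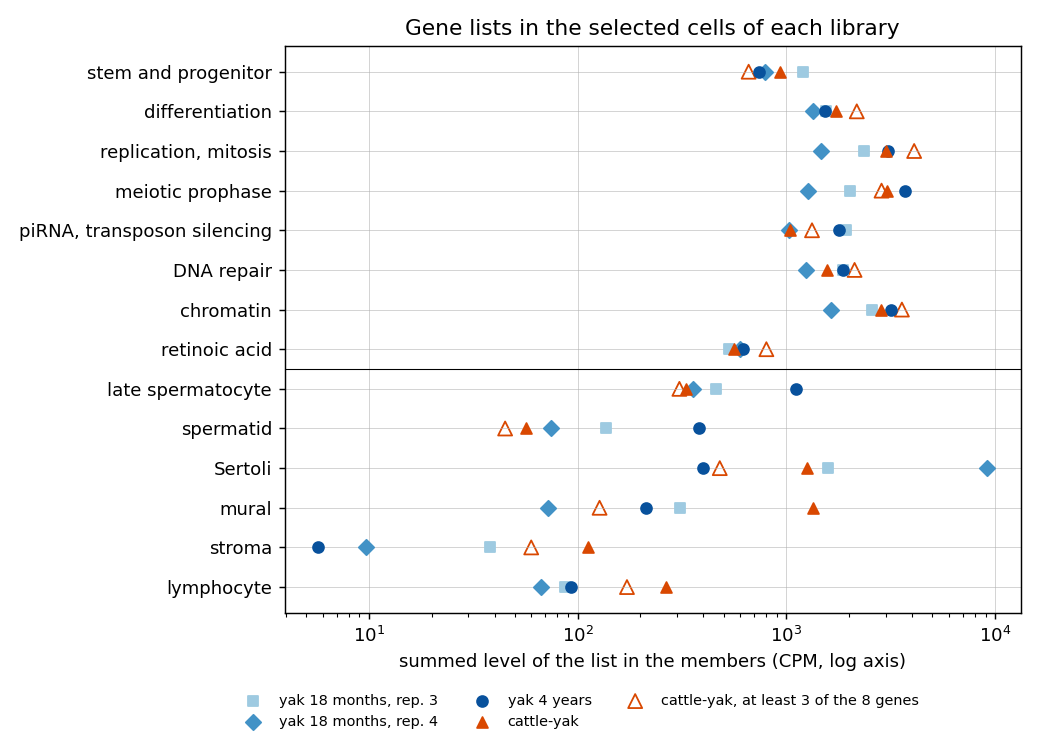
Summed level of each gene list in the selected cells (horizontal axis, CPM on a log axis) in 4 libraries, without the genes of the selection rule; open triangles are the 24 cattle-yak cells with at least 3 of the 8 genes. Replication and mitosis genes lie at 3054 and 3015 CPM in the 2 mature libraries, while the Sertoli list runs from 396 to 9139 CPM.

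Mature spermatogonia were then compared with adolescent ones, which asks what changed with sexual maturity. The yak of 4 years and the cattle-yak (n = 2) were set against the libraries of 18 months (n = 2) with edgeR's quasi-likelihood test. Of 9064 genes tested, 1 was higher in the mature stage (0.011%) and 1 lower (0.011%) at an adjusted p below 0.05, and 982 had an unadjusted p below 0.05. Neither has a symbol in the files. ENSBGRG00000019647 rose, from 3.92 and 8.07 CPM in the adolescent libraries to 396 in the mature yak and 260 in the cattle-yak (log2 difference 5.56, SE 0.61, adjusted p = 0.0472). ENSBGRG00000026299 fell, from 90.6 and 94.0 CPM to 0 UMIs in both mature libraries (adjusted p = 0.0472). Each group held values far from the other. The mature stage joins 2 genotypes, whose difference counts as spread in this test, and DESeq2 called 86 genes. Leaving out the cattle-yak gave 475 calls, leaving out the mature yak 98, and leaving out replicate 3 or 4 of 18 months 22 or 15. In simulated data the test recovered 0 of 1000 changes of 2-fold, 19.7% of 4-fold and 66.6% of 8-fold, so most changes of 4-fold or less would be missed.

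No listed gene passed the test. EZH2 had the lowest adjusted p among them and was at 70.6 and 50.8 CPM in the adolescent libraries and at 310 and 290 in the mature ones (log2 difference 2.17, SE 0.41, edgeR adjusted p = 0.130). SYCP3, the axial element of meiotic chromosomes, was at 34.9 and 44.0 against 203 and 169 CPM (edgeR adjusted p = 0.180). Other listed genes had larger differences at the same edgeR adjusted p of 0.180. INSL6, of later germ cells, was at 1.96 and 6.86 against 140 and 26.0 CPM (log2 difference 4.08, SE 0.87), and CRISP2, of spermatids, at 6.67 and 3.23 against 156 and 4.33, so its groups overlap. CRABP2, a carrier of retinoic acid, had 27 and 133 UMIs in the adolescent libraries against 1 and 0. MEIOC, which holds germ cells in meiotic prophase, was at 5.10 and 9.28 against 59.3 and 56.3 CPM (edgeR adjusted p = 0.180). Outside the lists, CDKN3, a phosphatase of the cell cycle, was at 15.7 and 15.3 against 207 and 73.6 CPM, and CCNE2, a cyclin of the entry into S phase, at 4.32 and 3.23 against 35.7 and 56.3 (both edgeR adjusted p = 0.120). In EZH2, SYCP3, MEIOC, CDKN3 and CCNE2 both mature values lay above both adolescent ones. Lower in both mature libraries were GPX1, a glutathione peroxidase, at 125 and 286 against 9.29 and 17.3 CPM, and GNG5, a G protein subunit, at 288 and 124 against 21.4 and 26.0 (both edgeR adjusted p = 0.120). None of these genes passed the test, and they were picked with their values in view.

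Of all 9064 genes, 3.96% had an unadjusted edgeR p below 0.05 on the high side and 6.87% on the low side. By list, 9 of 22 tested prophase genes had an unadjusted p below 0.05 on the high side and 0 on the low side, with a median log2 difference of 0.95. For differentiation this was 4 and 0 of 18 (median 0.71), for replication and mitosis 2 and 0 of 27 (median 0.56), for stem and progenitor genes 1 and 2 of 18 (median −0.96) and for piRNA genes 0 and 1 of 17 (median −0.12). Over all genes tested the median was −0.08. Beside this, the Sertoli list was at 1580 and 9139 CPM in the adolescent sums and at 396 and 1252 in the mature ones, 4 of its 6 tested genes had an unadjusted p below 0.05 on the low side, and INHA was at 537 and 2466 against 6.43 and 78.0 CPM. The share of UMIs from 27 ribosomal protein genes was 8.98% and 11.5% at 18 months against 7.23% and 7.70%. The part of Sertoli cell RNA in the stage difference was not tested.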

How the data were processed

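Testis cells of 3 yak groups and 1 cattle-yak group were measured with 10x Genomics libraries. The deposited files hold unnormalized UMI counts, which the authors made with Cell Ranger (5.0.0 per the file headers, 2.1.1 per the submitters' processing notes); no build of the genome is named in the sources used here. No deposited barcode had fewer than 500 UMIs. The members and gene lists were chosen with earlier results of these data known. Counts of the selected cells were summed per library. Cattle-yak and mature yak, 1 library each, were compared by ratios of CPM with 95% conditional binomial (exact) intervals, and genes past 4-fold with at least 20 UMIs in the higher library were counted. The stage comparison used edgeR 4.0.16 (R 4.3.3; TMM, filterByExpr, Benjamini-Hochberg), with DESeq2 1.42.0 as an alternative, and was tested on simulated data. The labels do not say whether each library is a separate animal, so its p-values reflect the spread of these libraries, which may be technical. UMIs were not corrected for free RNA, and doublets were not removed: Scrublet's own threshold marked 0 cells in both mature libraries. By rank of its score (0.8% per 1000 barcodes) 305 and 208 barcodes were marked, including 10 and 0 members. Named genes were those 4-fold apart, with a symbol, outside the rule, and at least as high in members as in all other cells of the higher library, up to 12 in each direction, plus listed genes with the most UMIs. The stage test was to add called genes with a symbol, and none qualified. Depth was 15897418 UMIs in the yak library and 9575446 in the cattle-yak library.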

Additional observations from a re-analysis of the deposited data

How the results depend on the processing

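The number of members moved with the rule: with up to 10% mitochondrial UMIs it was 176 in the yak and 33 in the cattle-yak, with at least 3 of the 8 genes 141 and 24, and with at least 500 genes 46 in the cattle-yak. Genes higher in the cattle-yak numbered 35 with at least 50 UMIs required and 14 with at least 3 of the 8 genes. Genes lower numbered 67 with at least 3 of the 8 genes and 62 with the yak sum thinned to the cattle-yak total. In the stage comparison, DESeq2 called 86 genes, library totals without TMM 79, no filter 434, all 6 libraries 26 and at least 3 of the 8 genes 61. Leaving out each library in turn gave between 15 and 475 calls, with 475 without the cattle-yak, 98 without the mature yak, and 22 and 15 without replicate 3 and 4 of 18 months; the lone library is then assumed to vary like the other group. The share of yak members with DLK1 was 20.0% after thinning. The cause of these changes was not tested, apart from fewer cells or UMIs where the setting removes them. Among ratios of summed lists, stem and progenitor (0.93), DNA damage and repair (1.04), chromatin and DNA methylation (1.04), heat shock and immediate-early (0.83), endothelial (0.58) and mural genes (0.76) changed side with at least 3 of the 8 genes, and heat shock and immediate-early genes (0.97) without the cattle-yak cells that hold most WFDC2 and most TAGLN. No log2 ratio of a named gene changed sign in 142 values, of which 16 left their counting interval. With under 3 UMIs in the cattle-yak, no value could be given for SOX9 with at least 3 of the 8 genes or for DEFB123 with up to 10% mitochondrial UMIs. Of the named genes, 3 of 12 lower and 1 of 6 higher were counted as past 4-fold with at least 3 of the 8 genes. This count required 20 UMIs in the higher library, which BLVRA (9 UMIs, ratio 9.33) and WFDC2 (5 UMIs, ratio 4.15) did not reach. For lower genes it took 3 UMIs in place of fewer. Removing members with over 10% mitochondrial UMIs or any somatic UMI from the pair, and removing those 2 cells, was added after seeing the data. No paired analysis was possible because the groups share no replicate number across the comparison.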
